A study of Mus musculus with 18 samples.

Results

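The Obox (oocyte-specific homeobox) genes of the mouse encode transcription factors with a paired-like homeodomain, a DNA-binding fold. Obox1, Obox2, Obox3, Obox5, Obox6 and Obox7 were taken by symbol from each of 18 embryo libraries, which makes 6 of the 55335 genes listed in each. All 6 passed the filter on low values in both experiments. They were read as 4 maternal members (Obox1, Obox2, Obox5 and Obox7) and 2 zygotic members (Obox3 and Obox6).

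The series concerns histone crotonylation in the early mouse embryo. Poly(A) RNA of 5 to 10 pooled embryos per tube was amplified by Smart-seq2, a full-length cDNA method. The siRNA experiment had 12 libraries in 4 groups of 3, control embryos (siCon) and embryos with siRNA targeting Echs1, which encodes a mitochondrial enoyl-CoA hydratase (siEchs1), each at the stages labelled E2C and L2C. The treatment experiment had 6 libraries in 3 groups of 2, in which WT zygotes were given DMSO, sodium acetate or sodium crotonate and were taken at E2C, the early 2-cell stage. The sources used here do not give strain, maternal age, doses, the meaning of L2C or a genotype for the siRNA embryos. Whether replicates are separate matings or cultures is not in the labels, so p-values measure the spread between these libraries, which may be technical. Echs1 itself lay at 0.71 to 5.88 FPKM in the 6 siEchs1 libraries and at 24.4 to 42.6 FPKM in the 12 others.

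Maternal Obox transcripts are made in the growing oocyte, stored in the egg and degraded after fertilization. Zygotic members are transcribed from the embryo's own genome when it is first switched on, which in the mouse happens mainly at the 2-cell stage. OBOX proteins are known as regulators of this zygotic genome activation, with overlapping roles among members.

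The members lie in a family cluster on chromosome 7 of mm10, between 14659496 and 15839678, a span of 1.18 Mb. Of 55 genes named Obox in the files, 53 lie on chromosome 7 and 2 on chromosome 17. Obox1, Obox2, Obox5 and Obox7 are on the plus strand, and Obox3 and Obox6 on the minus strand. Each is annotated as protein-coding.

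The RefSeq promoter table (GRCm38.p6, 250 bases before to 50 after each annotated start) held 5 of the 6 members, and Obox6 was not among them. The longest run identical in the promoters of Obox1, Obox2, Obox5 and Obox7 was 44 bases, and no other of 32851 promoters held it on either strand. The run was defined by these maternal members, so their sharing of it follows from the choice. Within the promoter of the zygotic Obox3, the closest stretch had 3 substitutions, G3T, C29T and G34A. They are counted from the 5′ end of the run with the maternal base first. Promoters of genes other than the members were not searched for near matches. The run and the stretch to the first TATATAA downstream are shown for 3 maternal members and Obox3, because they set the maternal promoters beside the zygotic one. The capitals mark the run, or its counterpart in Obox3, and TATATAA.
Obox1 (chr7:15547156-15547244, plus strand): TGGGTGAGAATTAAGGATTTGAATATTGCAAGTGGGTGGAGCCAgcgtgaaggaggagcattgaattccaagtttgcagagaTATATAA
Obox5 (chr7:15750257-15750345, plus strand): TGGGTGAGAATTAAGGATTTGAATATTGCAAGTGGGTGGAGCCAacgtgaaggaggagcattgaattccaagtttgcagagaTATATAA
Obox7 (chr7:14659621-14659709, plus strand): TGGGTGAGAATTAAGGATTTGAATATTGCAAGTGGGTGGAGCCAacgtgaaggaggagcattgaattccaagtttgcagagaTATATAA
Obox3 (chr7:15639801-15639889, minus strand): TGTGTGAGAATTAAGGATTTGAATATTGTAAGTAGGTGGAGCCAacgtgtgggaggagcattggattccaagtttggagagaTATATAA
Over these 89 bases Obox5 and Obox7 each differed from Obox1 at 1 position and Obox3 differed at 8. The run began 82 bases before TATATAA in all 4. In Obox2 the run began 4 bases before the annotated start, so that the window ended before any TATATAA. Of all promoters 3.24% held TATATAA on either strand. Both patterns were picked after the sequences had been seen. The homeodomain core TAATCC, searched on both strands, had 1 match in the Obox3 promoter and 0 in the 4 maternal ones, against 7.06% of all promoters with at least 1. These matches describe letters and not binding.

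Apart from Obox6, the coding sequences are close copies over their aligned bases. Each was taken as the longest open reading frame from an ATG over the transcripts of a gene. Their lengths ran from 456 bases in Obox2 to 1044 in Obox6, and identity leaves out unaligned bases. Obox1 and Obox2 were 98.5% identical over 456 aligned bases, and the other maternal pairs were 93% to 95.9% identical. Obox3 was 93% to 93.9% identical to the maternal members, while Obox6 stood apart at 76.1% to 80.9% from the other 5. In GENCODE M21, 34.1% of the 150-nt windows of Obox1 transcripts and 38.2% of those of Obox2 also occurred in another member, and 59 exon bases belonged to both genes. Single values of Obox1 and Obox2 are therefore uncertain. All windows of Obox5, Obox6 and Obox7 were their own, as were 95.5% of those of Obox3.

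In the control siRNA embryos the maternal members dominated at E2C, and at L2C Obox6 was the most abundant member in each of the 3 libraries. Values are FPKM, which scales fragments to transcript length and to the library, so levels of different members can be set beside each other per length. Obox5 was the most abundant member at E2C with 5404, 5114 and 5756 FPKM in replicates 1 to 3, which ranked it 23rd to 27th among all genes of a library. At L2C it stood at 223, 183 and 143 FPKM. Obox5 thus fell from 5425 ± 321 to 183 ± 40.2 FPKM (SD, n = 3), a log2 change of -4.90 (limma adjusted p = 7.24e-07).

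Obox1 stood at 2334, 2378 and 2651 FPKM at E2C and at 105, 140 and 61.7 FPKM at L2C. It fell by 4.65 on the log2 scale (SE 0.42, limma adjusted p = 8.15e-06). Obox2 stood at 1035, 577 and 551 FPKM at E2C and at 31.9, 35.2 and 30.01 FPKM at L2C, a change of -4.38 (SE 1.03, adjusted p = 0.00378). Obox7, the least abundant maternal member, went from 284, 517 and 543 FPKM to 22.6, 26.4 and 8.28 FPKM (-4.57, SE 0.51, adjusted p = 2.52e-05). For each of the 4 genes every L2C library lay far below every E2C library. The Obox2 call ended when no filter on low values was used (adjusted p = 0.0982).

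The zygotic members lay higher at L2C in siCon but did not pass the test in the fit of all 12 siRNA libraries. Obox3 stood at 58.4, 77.2 and 91.2 FPKM at E2C and at 146, 134 and 189 FPKM at L2C (log2 fold change 1.05, 95% interval -0.24 to 2.33, limma adjusted p = 0.163). Obox6 stood at 143, 213 and 149 FPKM at E2C and at 422, 277 and 613 FPKM at L2C (1.32, -0.19 to 2.83, adjusted p = 0.133). The groups did not overlap for either gene. With only the siCon libraries in the fit, both were called (adjusted p = 0.00596 and 0.00373), in a fit that called 63.5% of all genes, 43.5% higher. Between the siCon stages 4 of 6 members were called, all lower, against 50.2% of all 17652 genes called in either direction and 14.4% called lower. The median log2 change of all tested genes between these stages was 0.51, or -0.01 after quantile normalization and 0.74 after rescaling without mitochondrial and ribosomal RNA.

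**Figure D1:**
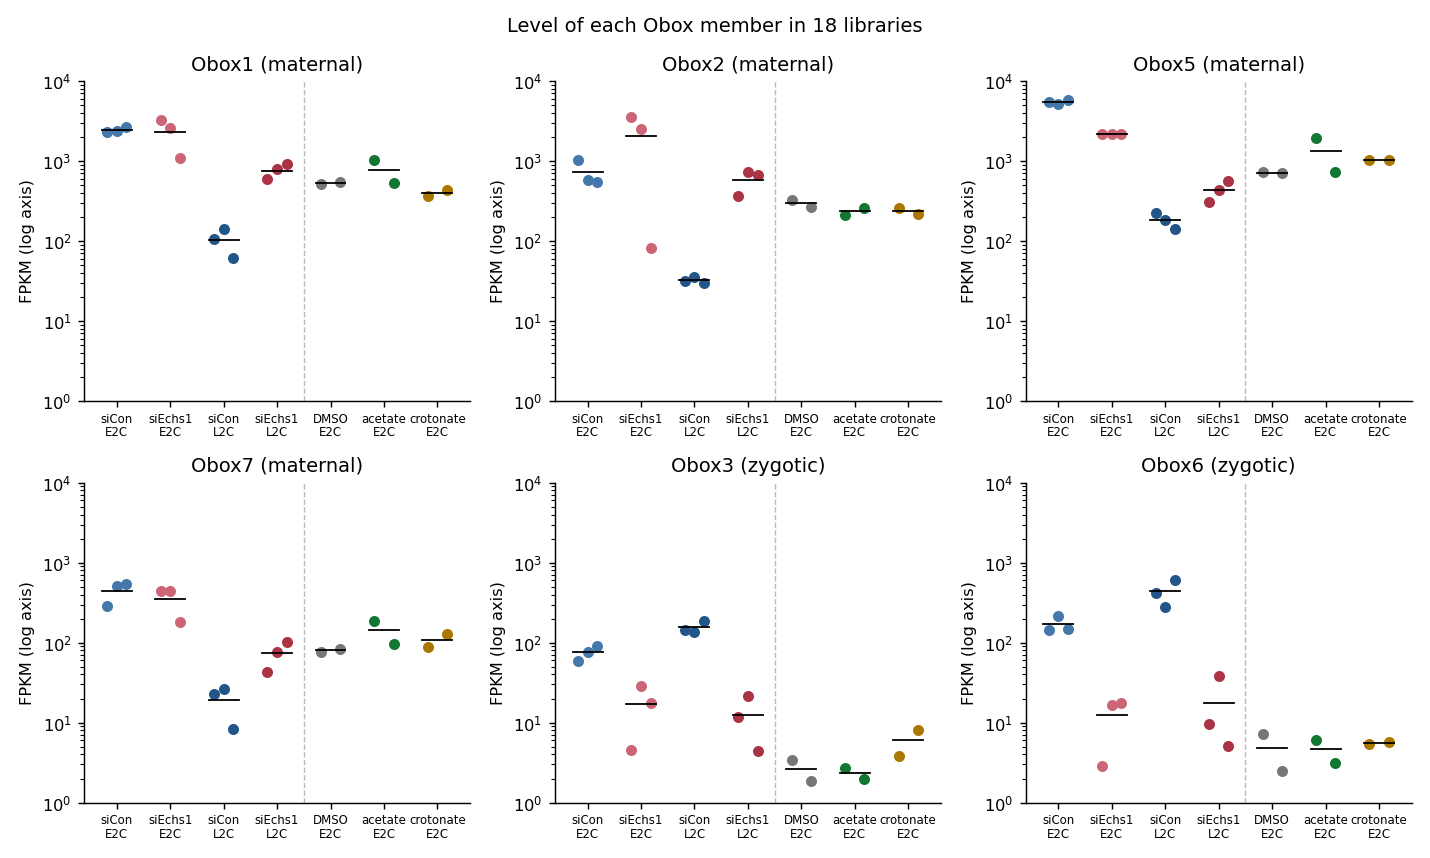
FPKM (log axis) of each Obox member in every library, by group, with points for libraries and a bar for the group mean; the dashed line parts the siRNA from the treatment experiment. Obox3 and Obox6 lie at 58.4 FPKM or more in every siCon library and at 38.8 FPKM or less in all others.

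With Echs1 siRNA at E2C, both zygotic members were called lower, and 1 of 4 maternal members was called. Obox6 stood at 2.85, 16.7 and 17.6 FPKM in siEchs1 replicates 1 to 3, against 143, 213 and 149 FPKM in siCon. It fell from 169 ± 38.8 to 12.4 ± 8.28 FPKM (SD, n = 3), a log2 change of -3.95 (limma adjusted p = 0.00279). Obox3 stood at 4.57, 28.5 and 17.5 FPKM in siEchs1, every library below the lowest siCon value of 58.4 FPKM. Obox3 fell from 75.6 ± 16.5 to 16.9 ± 11.96 FPKM (-2.38, adjusted p = 0.0154). With siCon E2C replicate 2 left out, Obox3 was no longer called (adjusted p = 0.0526), nor with replicate 3 left out (0.0622). Pooled embryos cannot tell fewer embryos or cells with a transcript from less of it per cell.

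Among the maternal members, Obox5 stood at 2175, 2169 and 2172 FPKM in siEchs1 E2C, a spread of 3.2 FPKM (SD, n = 3). All 3 libraries lay below the siCon libraries, and Obox5 fell by 1.32 on the log2 scale (SE 0.29, limma adjusted p = 0.0082). After quantile normalization the change was -0.53 and was not called (adjusted p = 0.275). Obox1 stood at 3284, 2604 and 1081 FPKM and overlapped siCon (-0.22, 95% interval -1.13 to 0.69, adjusted p = 0.748), and its sign turned after quantile normalization (0.50) and after rescaling (0.05). Obox7 stood at 443, 448 and 179 FPKM and overlapped siCon too (-0.39, -1.50 to 0.73, adjusted p = 0.636).

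Obox2 split the siEchs1 E2C libraries. Replicates 1 and 2 stood at 3543 and 2506 FPKM, above all siCon libraries, and replicate 3 stood at 81.7 FPKM, below all of them. The change was 0.38 (95% interval -1.85 to 2.62, limma adjusted p = 0.83), and without replicate 3 it was 2.11 (adjusted p = 0.000463), in a fit that called 37.2% of all genes, 23.2% higher. Replicate 3 also held the lowest Obox1 and Obox7 values of its group. Mitochondrial transcripts took 10.3% of the FPKM total in that library, against 2.82% and 1.69% in replicates 1 and 2 and 13.1% to 17.05% in siCon E2C. A list of 47 oocyte transcripts averaged 6.31 on the log2(FPKM + 1) scale there, against 8.10 and 8.32 in the other replicates and 5.85 to 5.96 in siCon E2C. The part of these differences in the Obox values was not tested.

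In all, 3 of 6 members were lower and 0 higher in siEchs1 at E2C, against 20.3% of all genes called in either direction, 11% higher and 9.31% lower. With no filter on low values 0 members were called (adjusted p = 0.26 for Obox6, 0.505 for Obox3 and 0.548 for Obox5). That fit tested 55098 genes and called 0.0944% of them.

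At L2C the maternal and zygotic members moved in opposite directions with Echs1 siRNA, and all 6 were called. Obox6 stood at 9.54, 38.8 and 5.17 FPKM in siEchs1, against 422, 277 and 613 FPKM in siCon. It fell by 4.92 on the log2 scale (SE 0.70, limma adjusted p = 0.000201). Obox3 stood at 11.9, 21.4 and 4.38 FPKM against 146, 134 and 189 FPKM, and fell by 3.75 (SE 0.59, adjusted p = 0.000372). The highest siEchs1 library for Obox6, at 38.8 FPKM, lay far below the lowest siCon library at 277 FPKM. Mitochondrial transcripts took 0.831% to 2.27% of the FPKM total in siEchs1 L2C and 7.58% to 11.2% in siCon L2C, and their part in the Obox values was not tested.

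The 4 maternal members were higher in siEchs1 L2C, with no overlap between the groups. Obox2 had the largest estimated rise (log2 change 4.08, 95% interval 1.84 to 6.32, limma adjusted p = 0.00624). Its siEchs1 libraries held 365, 728 and 668 FPKM where siCon held 31.9, 35.2 and 30.01. The Obox2 interval contained that of Obox1 (2.03 to 3.85), and members were not tested against each other. Sequence shared by Obox1 and Obox2 also leaves their order uncertain. Obox1 rose from 102 ± 39.1 to 760 ± 161 FPKM (SD, n = 3; 2.94, adjusted p = 0.000207), with 588, 788 and 905 FPKM in siEchs1. Obox7 rose from 19.1 ± 9.53 to 73.9 ± 30.1 FPKM (1.96, adjusted p = 0.00761), with 42.4, 77.1 and 102 FPKM in siEchs1. Obox5 had the smallest estimated rise, from 183 ± 40.2 to 431 ± 125 FPKM (1.21, adjusted p = 0.00425), with 305, 432 and 555 FPKM in siEchs1.

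These 4 higher and 2 lower members compare with 48.8% of all genes called at L2C, 21.9% higher and 26.9% lower. The call of all 6 held without each library in turn, after both other scalings and with the L2C libraries alone. With no filter on low values Obox1, Obox3 and Obox6 were called, and Obox2, Obox5 and Obox7 were not (adjusted p = 0.137, 0.217 and 0.193).

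**Figure D2:**
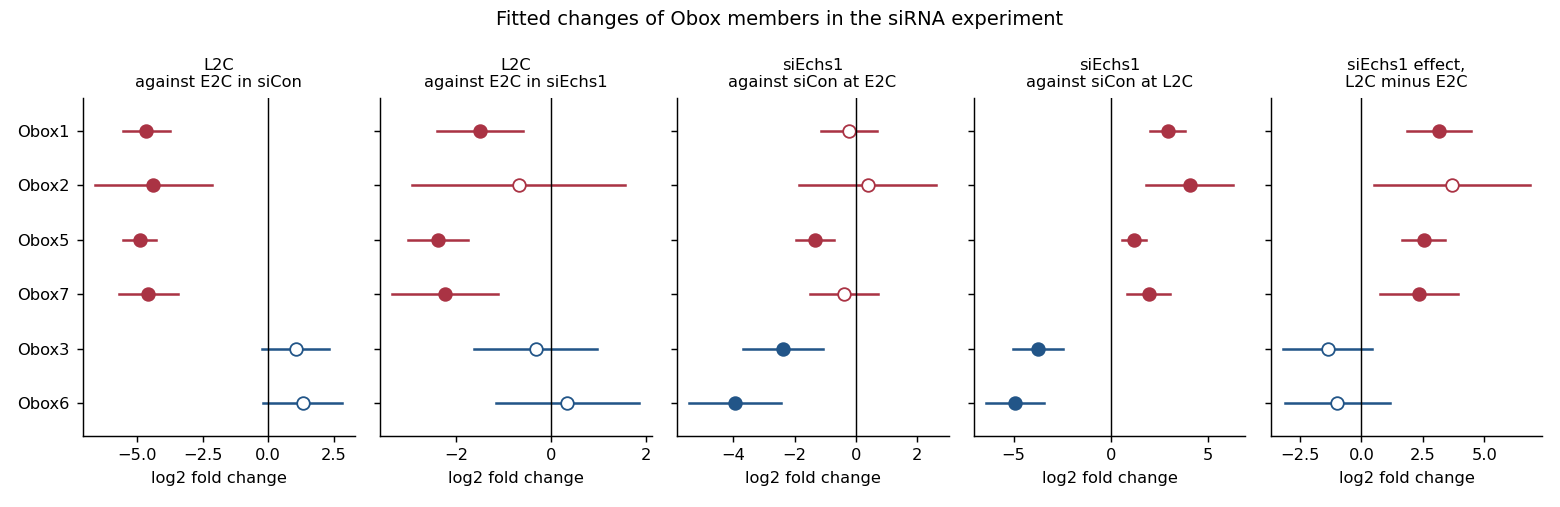
Fitted log2 fold change of each member (points) with its 95% interval (lines) in the 5 comparisons of the siRNA experiment, maternal members in red and zygotic in blue, filled points called at an adjusted p under 0.05. In siEchs1 against siCon at L2C all 6 points are filled, the maternal ones at 1.21 to 4.08 and the zygotic ones at -4.92 and -3.75.

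The effect of Echs1 siRNA differed between the stages for 3 maternal members. The difference of effects, L2C minus E2C, was 3.16 for Obox1 (95% interval 1.87 to 4.45, limma adjusted p = 0.00671) and 2.53 for Obox5 (1.65 to 3.41, adjusted p = 0.00386). Obox5 was the member that was lower with the siRNA at E2C and higher at L2C. For Obox7 the difference was 2.34 (0.77 to 3.92, adjusted p = 0.0432). That call ended after rescaling (adjusted p = 0.0517), with a pseudocount of 0.1 (0.06) and without any 1 of 6 libraries, namely replicate 2 (0.0971) or 3 (0.104) of siCon E2C, 1 (0.0595) or 3 (0.0968) of siCon L2C and 2 (0.0875) or 3 (0.113) of siEchs1 L2C. Obox2 had the widest interval (3.69, 0.53 to 6.86, adjusted p = 0.0982) and was called without replicate 1 (4.68, 0.0288) or 3 (1.97, 0.0112) of siEchs1 E2C, in fits that called 23.4% and 23.5% of all genes.

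The zygotic members gave no call for this difference, at -1.37 for Obox3 (95% interval -3.19 to 0.45, limma adjusted p = 0.275) and -0.98 for Obox6 (-3.11 to 1.16, adjusted p = 0.516). Obox3 was called without replicate 1 of siEchs1 E2C (-2.06, adjusted p = 0.0477), which brought the count to 5. In the full fit 3 of 6 members were called, all higher, against 17.2% of all genes in either direction and 5.65% higher. With no filter on low values 0 members were called (adjusted p = 0.498 for Obox1, 0.491 for Obox5 and 0.741 for Obox7).

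Within the siEchs1 embryos maternal members still fell between the stages, by less in log2 terms than in siCon. Obox5 went from 2172 ± 3.2 to 431 ± 125 FPKM (SD, n = 3), a log2 change of -2.37 (limma adjusted p = 0.000461). Obox7 went from 357 ± 154 to 73.9 ± 30.1 FPKM (-2.23, adjusted p = 0.0132), and Obox1 from 2323 ± 1128 to 760 ± 161 FPKM (-1.49, adjusted p = 0.0328). The difference from siCon is the same quantity as the difference of siRNA effects above, 2.53, 2.34 and 3.16 for these genes. Obox2 overlapped between the stages (-0.68, 95% interval -2.92 to 1.56, adjusted p = 0.731) but fell by 2.40 without replicate 3 of siEchs1 E2C (adjusted p = 0.000532), in a fit that called 19.9% of all genes.

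Obox3 and Obox6 in siEchs1 overlapped between E2C and L2C, with changes of -0.32 (95% interval -1.61 to 0.97) and 0.34 (-1.16 to 1.85). A total of 3 of 6 members were called, all lower, against 14.6% of all genes in either direction and 2.73% lower. The Obox1 call ended in 8 of 12 fits that left out a library (adjusted p = 0.0502 to 0.129), after quantile normalization (0.0885) and with the siEchs1 libraries alone (0.126). The Obox7 call ended with the siEchs1 libraries alone (0.0527) and without replicate 1 of siEchs1 L2C (0.0706), and with no filter 0 members were called (adjusted p = 0.203 for Obox5).

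The balance of the family was summarised by adding the FPKM of the 4 maternal and of the 2 zygotic members in each library. In siCon E2C the maternal sum was 9057, 8586 and 9499 FPKM and the zygotic sum 202, 290 and 241 FPKM, so that zygotic members made up 2.18%, 3.27% and 2.47% of the total. In siCon L2C the maternal sum was 383, 384 and 243 FPKM and the zygotic sum 568, 412 and 802 FPKM. Zygotic members then made up 59.7%, 51.7% and 76.8%. Only the siCon L2C libraries held more zygotic than maternal Obox transcript per length.

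In siEchs1 E2C the zygotic share was 0.0785%, 0.581% and 0.992%, below each siCon E2C library. In siEchs1 L2C it was 1.62%, 2.89% and 0.426%, with maternal sums of 1301, 2025 and 2231 FPKM and zygotic sums of 21.4, 60.2 and 9.55 FPKM. The mean log2 ratio of zygotic to maternal sums, each plus 1 FPKM, was -5.22 ± 0.31 in siCon E2C, 0.80 ± 0.83 in siCon L2C, -8.04 ± 1.85 in siEchs1 E2C and -6.21 ± 1.37 in siEchs1 L2C (SD, n = 3). The siEchs1 libraries of both stages thus lay on the maternal side of every siCon library except that replicate 2 of siEchs1 L2C (-5.05) lay within the siCon E2C range of -5.48 to -4.88. With the mean log2 level over members in place of sums, the ratio was -3.65 in siCon E2C, 2.15 in siCon L2C, -6.43 in siEchs1 E2C and -4.73 in siEchs1 L2C. These ratios carry no test.

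The make-up within the maternal sum differed as well. Obox5 gave 57.6% to 59.1% of all Obox FPKM in siCon E2C, Obox1 25.2% to 27.2% and Obox2 5.65% to 11.2%. In siEchs1 E2C replicates 1 and 2, Obox2 gave 37.5% and 32.2% and Obox5 23.0% and 27.9%. In replicate 3, Obox5 gave 61.2% and Obox2 2.3%. In siEchs1 L2C Obox1 led with 37.8% to 44.4%, followed by Obox2 with 27.6% to 34.9%. Reads shared by Obox1 and Obox2 limit how far their shares can be parted.

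**Figure D3:**
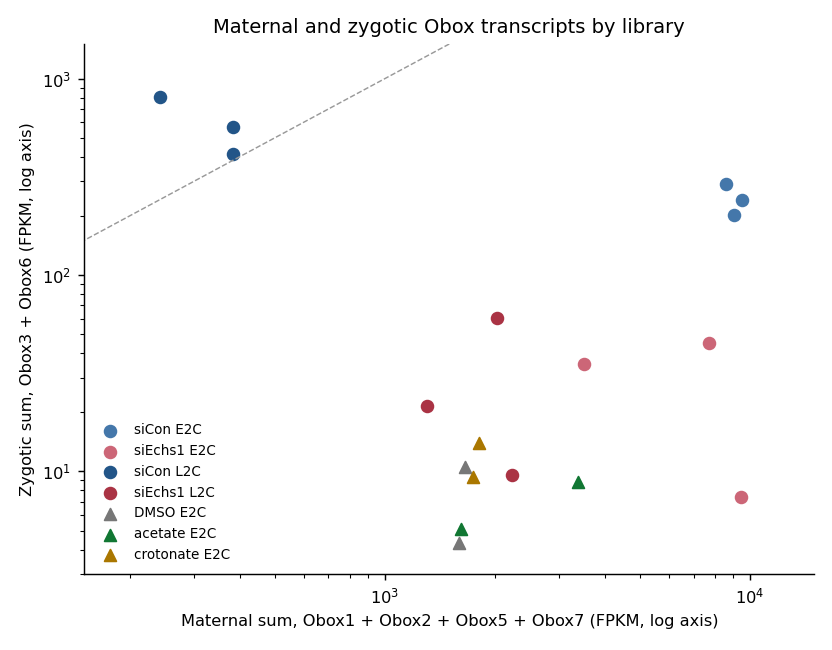
Summed FPKM of the 4 maternal members (x axis, log) against that of the 2 zygotic members (y axis, log), 1 point per library, with circles for the siRNA and triangles for the treatment experiment and a dashed line at equal sums. The 3 siCon L2C libraries lie above the line and all 15 others below it.

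The treatment experiment asked how crotonate and acetate given to zygotes affected early 2-cell embryos. Both are salts of short-chain carboxylic acids, and crotonate has the longer carbon chain and a carbon-carbon double bond. None of the 6 members was called for any of the 3 pairs of treatments (3 pairs compared, p-values adjusted over all 13789 genes of each). The doses are not given, so it is not known whether they matched.

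The zygotic members lay below 10 FPKM in all 6 treatment libraries. Obox3 stood at 3.40 and 1.86 FPKM with DMSO, 2.70 and 1.96 FPKM with acetate and 3.88 and 8.20 FPKM with crotonate. Both crotonate libraries lay above the 4 others. The log2 change was 0.92 for crotonate against DMSO (95% interval -0.10 to 1.94, limma adjusted p = 0.353), 1.02 for crotonate against acetate (-0.00 to 2.04, adjusted p = 0.256) and -0.10 for acetate against DMSO (-1.12 to 0.92, adjusted p = 0.96). Obox6 stood at 7.14 and 2.46 FPKM with DMSO, 6.13 and 3.15 FPKM with acetate and 5.48 and 5.69 FPKM with crotonate. Its groups overlapped, with changes of 0.31 for crotonate against DMSO (-0.84 to 1.46), 0.04 for acetate against DMSO (-1.11 to 1.18) and 0.28 for crotonate against acetate (-0.87 to 1.42).

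Among maternal members acetate replicate 1 stood apart. Obox5 was at 733 and 700 FPKM with DMSO, 1963 and 727 FPKM with acetate and 1034 and 1025 FPKM with crotonate. Obox1 was at 517 and 546 FPKM with DMSO, 1019 and 528 FPKM with acetate and 361 and 433 FPKM with crotonate. For Obox5 the change was 0.52 with crotonate against DMSO (95% interval -0.50 to 1.54, limma adjusted p = 0.613), 0.74 with acetate against DMSO (-0.28 to 1.76, adjusted p = 0.784) and -0.21 between crotonate and acetate (-1.24 to 0.81, adjusted p = 0.845).

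For Obox1 the corresponding changes were -0.43 (95% interval -1.24 to 0.39, limma adjusted p = 0.604), 0.46 (-0.35 to 1.28, adjusted p = 0.788) and -0.89 (-1.70 to -0.08, adjusted p = 0.216). Without acetate replicate 2, Obox5 was called for acetate against DMSO (1.45, adjusted p = 0.0354), and Obox1 (-1.36, adjusted p = 0.031) and Obox5 (-0.93, 0.0375) were called for crotonate against acetate. Those fits called 6.8% of all genes for acetate against DMSO and 11.1% for crotonate against acetate. In them acetate is represented by replicate 1 alone, whose spread is taken from the other groups. Mitochondrial transcripts took 20.6% of the FPKM total in acetate replicate 1 and 11.9% in replicate 2, and their part in the Obox values was not tested.

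Obox7 was at 77.3 and 82.8 FPKM with DMSO, 189 and 95.1 FPKM with acetate and 89.2 and 129 FPKM with crotonate. Both treatments lay above DMSO, by 0.74 for acetate (95% interval -0.14 to 1.62, limma adjusted p = 0.784) and 0.42 for crotonate (-0.46 to 1.30, adjusted p = 0.644). Between crotonate and acetate it was -0.32 (-1.20 to 0.56, adjusted p = 0.711). Obox2 was at 329 and 262 FPKM with DMSO, 214 and 261 FPKM with acetate and 255 and 218 FPKM with crotonate. Its change was -0.31 for acetate (-0.95 to 0.32, adjusted p = 0.796), -0.32 for crotonate (-0.95 to 0.32, adjusted p = 0.627) and -0.00 between them (-0.64 to 0.64).

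The count of 0 members stood against 0.529% of all genes called for crotonate against DMSO, 0.0653% for acetate against DMSO and 1.86% for crotonate against acetate. Before adjustment Obox1 alone of the members was under 0.05 by limma, for crotonate against acetate. Over all genes 2254, 822 and 2694 were under 0.05 before adjustment in the 3 comparisons. The intervals reach changes of about 2-fold in either direction for several members, so these libraries do not show that the treatments act alike on Obox genes.

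**Figure D4:**
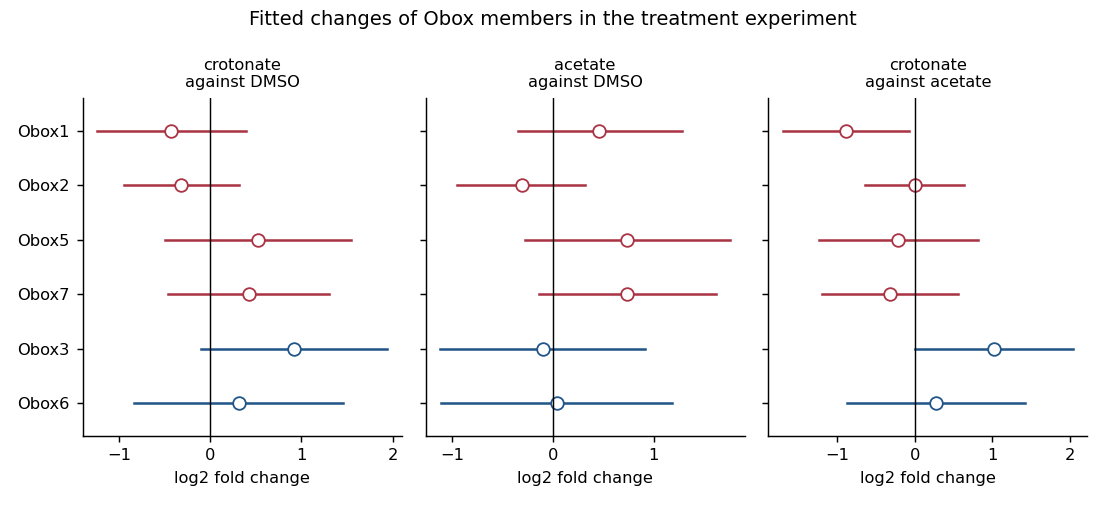
Fitted log2 fold change of each member (open points, none called) with its 95% interval (lines) for the 3 pairs of treatments, maternal members in red and zygotic in blue. The interval of Obox1 for crotonate against acetate, -1.70 to -0.08, is the one that lies wholly on 1 side of 0.

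Across the 7 groups the order of levels differed between the maternal and the zygotic members. These classes were set with earlier results of these data known, so the levels are no separate evidence for them. Values of the 2 experiments are set side by side without a test, because they were not normalized together. Each of the 4 maternal members was lowest in siCon L2C, where Obox1 averaged 102 FPKM, Obox2 32.4, Obox5 183 and Obox7 19.1. Obox1, Obox5 and Obox7 were highest in siCon E2C, and Obox2 in siEchs1 E2C at 2044 ± 1777 FPKM (SD, n = 3). For Obox1, Obox2 and Obox7 the E2C libraries of siCon and siEchs1 overlapped. Obox3 and Obox6 were highest in siCon L2C and next in siCon E2C, with no overlap of these groups with each other or with any other group.

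Embryos of the DMSO group and of siCon E2C carry the same stage label but differed widely. Obox5 averaged 717 FPKM with DMSO and 5425 FPKM in siCon E2C, Obox6 4.80 and 169 FPKM, and Obox3 2.63 and 75.6 FPKM. The zygotic share of all Obox FPKM was 0.632% and 0.271% with DMSO, 0.26% and 0.316% with acetate and 0.535% and 0.764% with crotonate. The share in siCon E2C began at 2.18%. The siRNA and the experiment cannot be told apart here.

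Genes whose log2 levels over the 12 siRNA libraries were most like each member were sought among 8216 named genes with a mean of at least 5 FPKM. The correlations below describe libraries that share the 4 groups. Obox6 was nearest to Trim43b (Pearson r = 0.997), Trim43a (0.986) and Guca1a (0.984), and Obox3 to Prps1 (0.992), Trim43a (0.989) and Guca1a (0.987). Trim43a and Trim43b belong to a tripartite motif family expressed in early embryos. Trim43b averaged 118 FPKM in siCon E2C, 11.8 in siEchs1 E2C, 259 in siCon L2C and 14.96 in siEchs1 L2C. Obox3 and Obox6 correlated with each other at 0.978.

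Obox1 was nearest to the mitochondrial channel gene Vdac3 (0.993), Vta1 (0.987) and Sdhaf4 (0.987), and Obox7 to Commd3 (0.983), Xlr3a (0.974) and the peroxiredoxin gene Prdx1 (0.973). Obox5 was nearest to Ift43 (0.980), Mphosph6 (0.978) and the oocyte gene Oosp1 (0.977), which share its lower level in siEchs1 E2C. Oosp1 averaged 7011 FPKM in siCon E2C, 3034 in siEchs1 E2C, 909 in siCon L2C and 1216 in siEchs1 L2C. Obox2 was nearest to the oocyte gene Nlrp9b (0.975), Zup1 (0.974) and Trappc3l (0.968). Among the maternal members the correlation ran from 0.648 between Obox2 and Obox5 to 0.970 between Obox1 and Obox7.

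Other genes named Obox numbered 49, made up of Obox8 and 48 entries with pseudogene symbols, of which 8 are named for Obox3, 39 for Obox4 and 1 for Obox6. Of these 23 stayed under 1 FPKM in every library. Obox8 was at 21.6, 64.8 and 31.5 FPKM in siCon E2C, 132, 143 and 393 FPKM in siCon L2C, 1.63, 2.41 and 13.8 FPKM in siEchs1 E2C and 6.80, 11.2 and 1.61 FPKM in siEchs1 L2C. It rose with stage in siCon (log2 fold change 2.43, limma adjusted p = 0.015) and fell with Echs1 siRNA at E2C (-2.84, adjusted p = 0.0175) and at L2C (-4.97, adjusted p = 0.000244). Obox8 was at 0.86 and 0.00 FPKM with DMSO and at no more than 1.85 FPKM with acetate or crotonate.

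The 8 entries named for Obox3 summed to more than Obox3 itself. Their sum was 331, 413 and 436 FPKM in siCon E2C, 15.4, 160 and 56.4 FPKM in siEchs1 E2C, 708, 576 and 913 FPKM in siCon L2C and 57.6, 99.0 and 15.6 FPKM in siEchs1 L2C. Of 7 tested, 5 fell at E2C and 7 at L2C with Echs1 siRNA, and 0 rose, against 9.31% and 26.9% of all genes called lower. Obox3-ps5 was the most abundant, at 395 ± 106 FPKM in siCon L2C and 35.8 ± 26.1 FPKM in siEchs1 L2C (SD, n = 3), a log2 change of -3.73 (limma adjusted p = 0.00211). Of 8 tested entries named for Obox4, 2 fell at E2C and 1 at L2C, and 0 rose. The count at L2C is below the share of all genes. Obox4-ps35 fell at both stages, at L2C from 63.0 FPKM in siCon to 3.95 in siEchs1 (-3.78, limma adjusted p = 8.03e-05). All 39 entries, Obox4-ps35 included, summed to 86.2, 62.7 and 72.3 FPKM in siCon L2C and to 5.10, 9.93 and 17.6 FPKM in siEchs1 L2C. Most of the siCon L2C sum was Obox4-ps35, so the sum does not describe the other entries. Close copies can exchange reads with each other, so single values of these entries are uncertain.

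**Figure D5:**
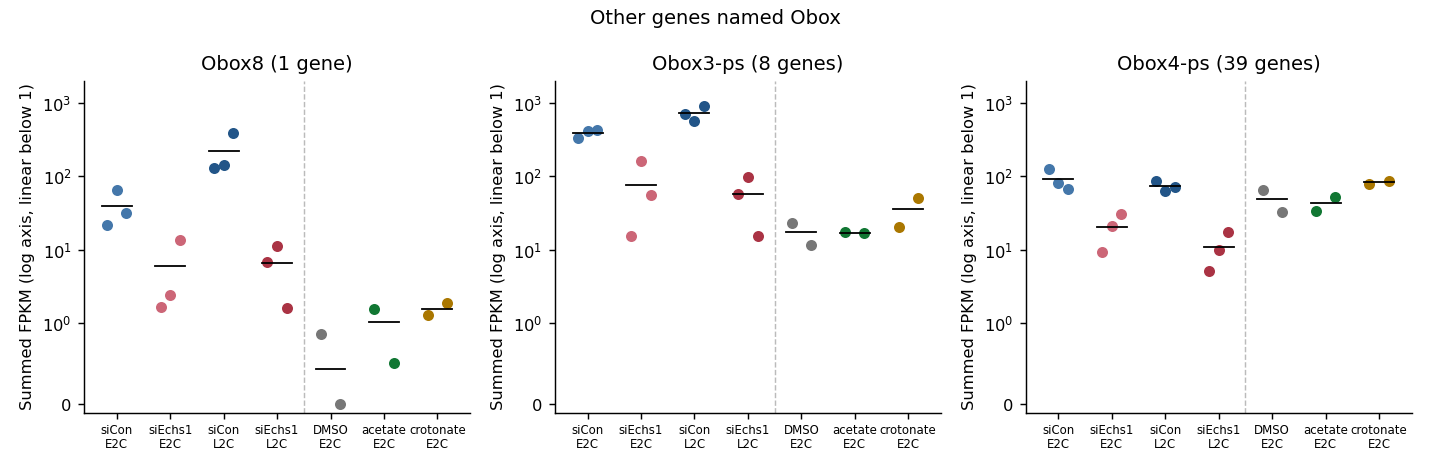
FPKM of Obox8 and summed FPKM of the entries with pseudogene symbols named for Obox3 (8) and Obox4 (39), in every library by group (log axis, linear below 1). Points are libraries and a bar is the group mean. Obox8 lies at 21.6 FPKM or more in every siCon library and at 13.8 FPKM or less in all others.

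Related homeobox genes, a list of 24 with 18 tested, held calls in both directions. With Echs1 siRNA 2 rose and 4 fell at E2C (median log2 change 0.02), and 4 rose and 7 fell at L2C (median -0.79). Of all genes 11% were called higher and 9.31% lower at E2C, and 21.9% and 26.9% at L2C, so the counts of higher genes lie at the background. Crxos, a PRD-like gene of early embryos, fell at E2C from 442 ± 224 to 60.2 ± 51.0 FPKM (SD, n = 3, -3.13, limma adjusted p = 0.0154) and at L2C from 700 to 41.8 FPKM (-4.27, adjusted p = 0.000871). The oocyte regulators Nobox and Lhx8 rose at both stages. Nobox averaged 261 against 26.4 FPKM at E2C (2.94, adjusted p = 0.00306) and 556 against 24.4 FPKM at L2C (4.48, adjusted p = 9.03e-05), and Lhx8 changed by 1.72 (adjusted p = 0.0122) and 2.81 (adjusted p = 0.000221). Duxf3, a homeobox inducer of 2-cell genes, was at 4.40 ± 6.51 against 0.43 ± 0.105 FPKM at E2C and did not pass (adjusted p = 0.247).

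Other lists gave the setting in which the members moved. Of 36 transient 2-cell transcripts 0 rose and 19 fell at E2C (median log2 change -1.52), and 3 rose and 31 fell at L2C (-2.79). Of 31 other factors of genome activation 3 rose and 3 fell at E2C (0.20), and 1 rose and 14 fell at L2C (-0.93). The nuclear receptor Nr2c2, for example, averaged 4.14 against 87.8 FPKM at L2C (-4.25, limma adjusted p = 5.66e-05). Of 47 oocyte transcripts 24 rose and 3 fell at E2C (1.44), and 35 rose and 2 fell at L2C (2.93). The median of all tested genes was 0.15 at E2C and -0.08 at L2C, with 11% called higher and 9.31% lower at E2C and 21.9% and 26.9% at L2C.

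Some markers of other cells that a tube could hold moved with the groups, and in siCon L2C the cumulus and oviduct lists reached sums near the level of Obox3. Of 7 blood markers 2 could be tested, Hba-a1 and Hba-a2, and both fell with the siRNA at both stages. The list summed to 59.7 to 77.8 FPKM in siCon E2C, 2.74 to 10.5 in siEchs1 E2C, 90.5 to 125 in siCon L2C and 3.43 to 18.7 in siEchs1 L2C. Of 14 cumulus and granulosa markers 3 could be tested. They summed to 8.22 to 14.2 FPKM in siCon E2C, 9.55 to 12.3 in siEchs1 E2C, 100 to 148 in siCon L2C and 11.95 to 18.5 in siEchs1 L2C, where Amhr2 alone averaged 113 FPKM in siCon L2C, and Amh and Ptx3 were at 0 in both E2C groups. Of 8 oviduct markers 4 could be tested, and sums were 22.9 to 26.8, 5.45 to 16.0, 141 to 191 and 6.39 to 37.8 FPKM in the same order, with Foxj1 at 0 in both E2C groups and Pax8 at 0 in siCon at both stages. Of 10 sperm and testis markers 3 could be tested, and sums were 34.4 to 78.7, 28.4 to 42.3, 5.30 to 11.4 and 7.70 to 19.8 FPKM, with Acr at 0 in every siRNA group but siEchs1 L2C. In siCon L2C, 6 of 8 oviduct markers and 4 of 14 cumulus and granulosa markers reached 1 FPKM in at least 1 library. None of those 14 was at 0 in every siCon L2C library. The part of these markers in the Obox results was not tested.

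FPKM totals per library ran from 708113 to 1123993, and 12037 to 16703 genes reached 1 FPKM. The number of fragments behind each value is unknown, so no counting interval is given.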

How the data were processed

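Per the labels' protocols, libraries were read as pairs of 150 nt. The submitters' processing notes name cutadapt 1.16, STAR and the build mm10; the sources used here do not name the program that computed expression or how it handled multi-copy reads. FPKM values were deposited by the authors, 1 file per library, with no read counts and no strand. Groups and replicate numbers came from sample titles. Entries with a repeated symbol or a date for a symbol (237) were left out, leaving 55098 genes, and log2(FPKM + 1) was computed, which understates changes of low genes.

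Genes that reached 1 FPKM in 3 or more siRNA libraries (17652) or 2 or more treatment libraries (13789) were fitted with limma 3.58.1 in R 4.3.3 (trend, robust, group means), 1 fit per experiment. Calls were at a two-sided Benjamini-Hochberg adjusted p under 0.05 over all genes tested. Members, roles, gene lists and tests were chosen with earlier results of these data known. All members, up to 4 called genes of a list per comparison and the 3 most correlated genes per member could be named. Duxf3, Obox3-ps5, Obox4-ps35 and Obox8 were chosen after their values were seen. Sequences came from RefSeq (GRCm38.p6) and GENCODE M21 and were aligned with Biopython 1.88. The fitting code was also run on simulated data with independent noise and the same spread in every group. That setting holds no library that departs across many genes, so it lends no support to the calls. Alternatives were quantile normalization, rescaling without mitochondrial and ribosomal RNA, no filter, a pseudocount of 0.1, no trend, compared groups alone, a replicate block and leaving out each library.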

Additional observations from a re-analysis of the deposited data

Results flagged for a closer look

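The effect of Echs1 siRNA differed between L2C and E2C, by the test of the difference itself, for 3 maternal members. On the log2 scale the difference was 3.16 for Obox1, 2.53 for Obox5 and 2.34 for Obox7, with limma adjusted p of 0.00671, 0.00386 and 0.0432. The Obox7 call ended after rescaling (limma adjusted p = 0.0517) and without any 1 of 6 libraries. For Obox5 the effect was -1.32 at E2C and 1.21 at L2C, both called. Its E2C call ended after quantile normalization (-0.53, limma adjusted p = 0.275). For Obox1 it was -0.22 and 2.94, and for Obox7 -0.39 and 1.96, with calls at L2C and none at E2C. The gap test for an outlying library needs at least 4 libraries in a group and was not run.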

How the results depend on the processing

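Without the filter on low values the number of members called was 0 for siEchs1 against siCon at E2C, 3 at L2C, 0 for the difference of these effects and 0 for L2C against E2C in siEchs1, where 55098 genes shared the adjustment. With the compared libraries alone it was 1 for L2C against E2C in siEchs1. Leaving out each library in turn, the count ran from 2 to 5 for the difference of effects, from 1 to 4 for L2C against E2C in siEchs1, from 0 to 1 for acetate against DMSO and from 0 to 2 for crotonate against acetate. The highest treatment counts came without acetate replicate 2, where 6.8% and 11.1% of all genes were called. Taking the mean log2 level over members in place of sums, the zygotic to maternal ratio was -3.65 in siCon E2C, 2.15 in siCon L2C, -4.73 in siEchs1 L2C, -6.15 with DMSO, -6.59 with acetate and -5.59 with crotonate.

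Signs turned for values that had not been called. After quantile normalization these were Obox1 in siEchs1 against siCon at E2C (0.50), Obox6 in L2C against E2C of siEchs1 (-0.05), and Obox2 (0.28) and Obox5 (0.07) in crotonate against acetate. After rescaling they were Obox1 at E2C (0.05), Obox6 in acetate against DMSO (-0.08) and Obox2 in crotonate against acetate (0.16). The cause was not tested.

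Leaving out a library gave ranges across 0 at E2C for Obox1 (-0.55 to 0.26), Obox2 (-0.60 to 2.11) and Obox7 (-0.69 to 0.05), and between stages in siEchs1 for Obox2 (-2.40 to 0.31), Obox3 (-1.01 to 0.23) and Obox6 (-0.42 to 0.92). In crotonate against DMSO this held for Obox6 (-0.31 to 0.93), and in acetate against DMSO for Obox1 (-0.01 to 0.94), Obox3 (-0.41 to 0.21) and Obox6 (-0.58 to 0.65). In crotonate against acetate it held for Obox2 (-0.14 to 0.14), Obox5 (-0.93 to 0.50), Obox6 (-0.11 to 0.67) and Obox7 (-0.81 to 0.17).

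Replicate numbers were not taken to pair the libraries. By the titles, same-numbered siRNA libraries correlated at -0.101 to 0.111 in their deviations from group means, and treatment libraries at -0.0957 to 0.16. In treatment groups of 2 the deviations mirror each other. Both replicate numbers then give the same value, which cannot test pairing by replicate. With the replicate block from the titles, Obox7 lost its call for the difference of effects (2.34, limma adjusted p = 0.0552), and no other call of a member changed. For replicates 2 and 3 of siEchs1 L2C the file names give other numbers than the titles, and a block with those numbers changed no call of a member. With the file-name numbers, siCon and siEchs1 libraries at L2C correlated at 0.111, 0.0875 and 0.224, each best with its own number, as a hint from the data and not the design.

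In single-member results 422 kept direction and call when a library was left out, 17 lost the call, 8 gained it and 21 changed sign. Under the other settings these numbers were 331, 20, 2 and 7. Without fragment counts, the precision of low values such as Obox3 and Obox6 in the treatment libraries cannot be given.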
